A study of Mus musculus with 18 samples.

Results

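Metallothioneins are small cysteine-rich proteins that bind zinc and copper, and Mt1 and Mt2 are the forms made in most mouse tissues. A group of 5 genes of this system was described in mouse gastrocnemius, the large calf muscle: Mt1 and Mt2; Mtf1, the zinc-sensing transcription factor that drives both; Slc39a14 (ZIP14), which brings zinc and also iron and manganese into cells; and Slc30a1 (ZnT1), which exports zinc across the plasma membrane. They are 5 of the 54532 genes in the count table, found by Ensembl gene identifier and symbol. All 5 were among the 17833 genes that passed the low-count filter. The set was chosen by readouts of these same 18 libraries, since the loading and genotype differences were known when the genes were named; which value chose which gene is not given in the sources used here. Their values are therefore a description, and the calls listed for them below are not read as tests.

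Free zinc in a cell is kept low. When it rises, Mtf1 binds short metal response elements in the promoters of the metallothionein genes and of Slc30a1, and the products bind or export the metal. Glucocorticoids, interleukin-6 and oxidative stress also raise metallothionein expression. In skeletal muscle, metallothionein mRNA is known to be higher in several forms of wasting.

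The mice were female C57BL/6 animals of 2 genotypes, flox/flox (flox here) or a conditional skeletal muscle knockout of Zfp697 (mKO), a zinc finger gene. Each genotype had a control group in conventional cages, a group after 10 days of hindlimb unloading, which takes body weight off the calf muscles, and a group after 3 days of reloading, which returns it. Each of the 6 groups had 3 libraries of polyadenylated RNA. The labels give neither the Cre driver nor the age of the mice, and leave unsaid whether the 3 libraries in each group were made from different animals. The p-values thus reflect the spread among libraries, which may be technical. All 10 skeletal muscle markers were present in every group, with summed levels of 124000 to 179000 CPM (counts scaled to a common library total, with library factors from TMM, trimmed mean of M values). Total counts ran from 45069595 to 51592566 per library. Zfp697 had 45 to 137 counts per library and stood at 1.2 ± 0.134 CPM (SD, n = 3) in mKO control against 1.19 ± 0.35 in flox control. After unloading it stood at 1.66 ± 0.72 CPM in mKO against 1.65 ± 0.0809 in flox muscle. At reloading it was lower in mKO muscle, at 1.68 ± 0.247 against 2.57 ± 0.23 CPM. These counts cover the whole gene in all cells of the muscle, and the deleted part is not given in the sources used here, so they do not check the genotype labels.

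Mt1 (ENSMUSG00000031765) lies on chromosome 8 of GRCm38 from 94179082 to 94180327, and Mt2 (ENSMUSG00000031762) lies upstream of it from 94172664 to 94173568, both on the plus strand. The coding sequences of transcripts Mt1-201 and Mt2-201 are shown because near copies can share reads. They were read from the reference genome, and capitals mark the bases that differ.
Mt1: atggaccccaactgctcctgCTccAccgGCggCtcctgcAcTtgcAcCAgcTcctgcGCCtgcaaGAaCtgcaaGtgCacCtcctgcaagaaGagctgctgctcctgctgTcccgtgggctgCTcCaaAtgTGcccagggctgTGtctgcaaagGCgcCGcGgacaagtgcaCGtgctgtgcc
Mt2: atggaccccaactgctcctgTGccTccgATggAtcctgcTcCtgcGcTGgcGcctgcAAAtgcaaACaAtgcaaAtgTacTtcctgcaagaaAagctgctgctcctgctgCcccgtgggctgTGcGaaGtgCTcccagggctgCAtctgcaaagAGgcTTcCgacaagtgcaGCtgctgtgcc
Both are 183 bases long, and 145 bases are identical (79.2%). The 38 differences are spread along the whole length, and the longest identical run, within the coding sequence or between the transcripts, is 20 bases. Outside the metallothionein family, the longest match to Mt2 on the same strand was a processed transcript of Pip5k1a, at 74.608% identity over 319 bases. On the opposite strand Gm45774 matched 212 bases at 100%, and Ftx matched 72 bases at 77.778%.

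A second overlap bears on Mt2. Gm45774 (ENSMUSG00000110588), an antisense gene, covers 432 of the 588 exon bases of Mt2 (73.5%) and leaves 156 bases to Mt2 alone. The header of the count table shows no option for strand or for reads that fall on more than 1 gene. Reads on the shared bases therefore may not have been counted for either gene, and the level of Mt2 is uncertain and may be too low. Smaller overlaps were found for Mtf1, where 1110065P20Rik covers 721 of 8907 exon bases (8.09%), and for Slc30a1, where 1700034H15Rik covers 468 of 5244 (8.92%). The small RNA gene n-R5s192 lies within Mtf1 and shares no exon base with it. Slc39a14 overlaps no other gene.

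The 250 bases before the RefSeq start of Mt1 and of Mt2 (GRCm38.p6, plus strand) are shown because the levels of these 2 genes moved together. Capitals mark the core of the metal response element, searched on both strands as TGCACNC or TGCGCNC.
Mt1, chr8:94178839-94179088: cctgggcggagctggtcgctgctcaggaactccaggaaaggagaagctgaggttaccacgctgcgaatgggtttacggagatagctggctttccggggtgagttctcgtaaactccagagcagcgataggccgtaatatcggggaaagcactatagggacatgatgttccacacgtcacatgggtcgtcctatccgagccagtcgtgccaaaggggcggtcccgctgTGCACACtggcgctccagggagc
Mt2, chr8:94172368-94172617: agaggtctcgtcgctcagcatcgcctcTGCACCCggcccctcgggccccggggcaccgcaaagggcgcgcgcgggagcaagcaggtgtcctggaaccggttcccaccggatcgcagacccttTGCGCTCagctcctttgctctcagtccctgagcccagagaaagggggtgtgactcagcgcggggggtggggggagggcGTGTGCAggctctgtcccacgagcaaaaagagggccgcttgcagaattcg
The Mt1 stretch holds 1 core, from 23 to 17 bases before the start. The Mt2 stretch holds 3, and the one nearest to the start is on the minus strand. In 21.4% of 32851 RefSeq promoters the window of 250 bases before the start holds at least 1 such core, and in 1.26% at least 3. Mt1 has other annotated starts further downstream, at 94179211 and 94179241, and the window does not reach them. The Mt2 window ends at 94172617, before the annotated start of Mt2-201 at 94172664. The coding sequences begin at 94179311 in Mt1-201 and at 94172848 in Mt2-201. Bases between each window and its coding sequence were not searched, so the numbers of cores do not cover the whole upstream region of either gene. The Slc30a1 window holds 1 core (GAGTGCA on the gene strand) and the Mtf1 window none. An antioxidant core, TGACNNNGC on either strand, occurs once in Mt2 (TGACTCAGC) and once in Slc30a1, and in 10.2% of all windows. None of the 4 windows holds the STAT core TTCNNNGAA, present in 7.02% of windows. These matches describe letters in the windows and say nothing of binding.

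Mt1 was low in control muscle, higher after unloading in both genotypes, and higher again after reloading in flox muscle. In flox control muscle the libraries had 5.3, 5.12 and 3.56 CPM. After unloading they had 8.15, 11.3 and 10.5 CPM, and after reloading 22.6, 21.2 and 14.4 CPM. The 3 flox groups did not overlap, and each step placed every library above every library of the step before. In mKO control muscle Mt1 stood at 4.03, 5.81 and 4.25 CPM, and after unloading at 6.7, 9.31 and 8.76 CPM. After reloading the mKO libraries had 5.32, 9.91 and 6.49 CPM. The mKO unloading libraries were thus all above the mKO controls, while the mKO reloading libraries overlapped both other mKO groups and lay below every flox reloading library.

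**Figure D1:**
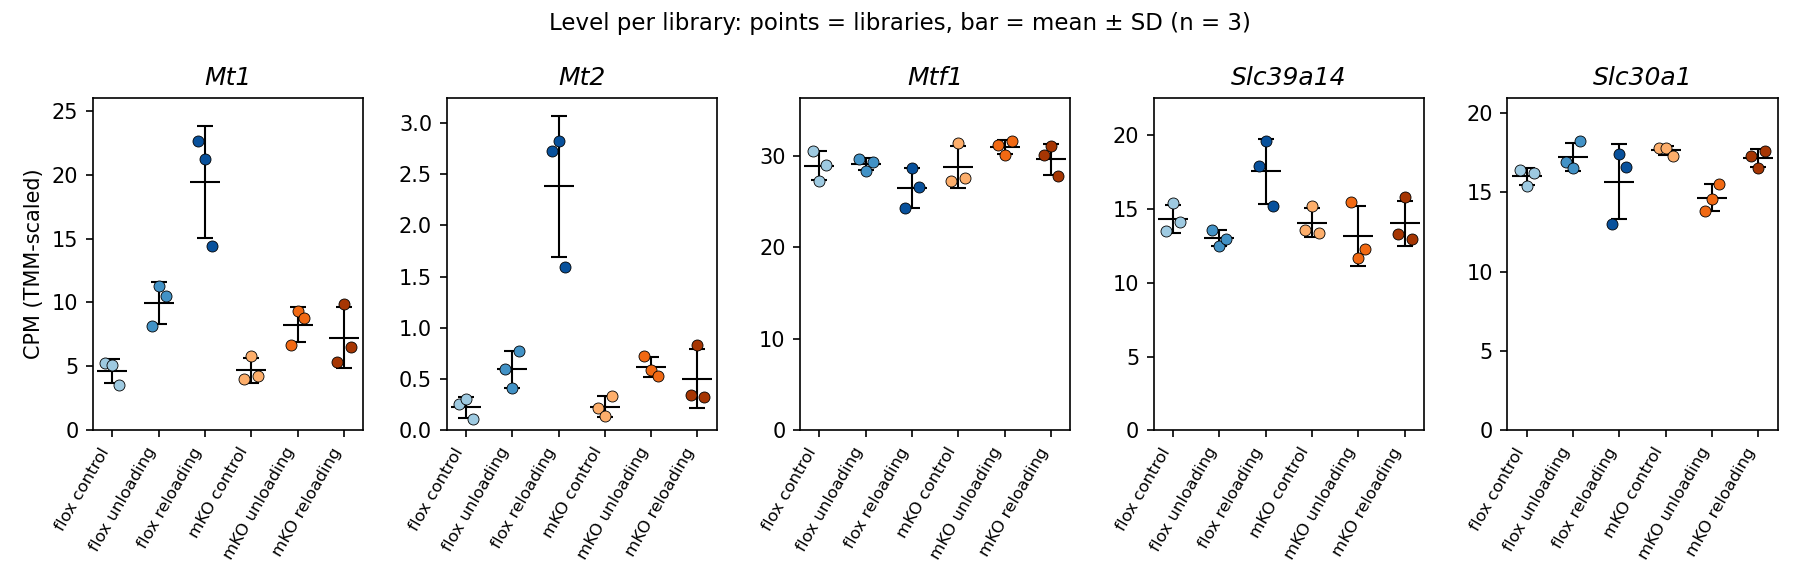
Level in CPM (linear axes from 0) of the 5 genes in each of the 18 libraries, by genotype and loading; points are libraries, and the bars give the mean and SD of 3 libraries. Mt1 and Mt2 are highest in the 3 flox reloading libraries, while Mtf1 stays between 24.3 and 31.6 CPM throughout.

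On the log2 scale Mt1 stood higher by 1.09 ± 0.23 (SE of the fit, here and below) after unloading than at control in flox muscle, and by 0.81 ± 0.23 in mKO muscle. From unloading to reloading the difference was 0.96 ± 0.22 in flox and -0.19 ± 0.23 in mKO muscle. Against control, reloaded flox muscle had 2.05 ± 0.23 more, a 4.16-fold level, and reloaded mKO muscle 0.63 ± 0.23, a 1.54-fold level. At reloading the mKO level was lower than the flox level by a log2 difference of -1.42 ± 0.23. At control (0.01 ± 0.24) and after unloading (-0.27 ± 0.23) the genotypes overlapped.

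Mt2 had far fewer counts, 5 to 152 per library against 158 to 1145 for Mt1, and flox reloading was again the highest group. The flox control libraries had 0.256, 0.306 and 0.113 CPM, the flox unloading libraries 0.597, 0.414 and 0.776, and the flox reloading libraries 2.73, 2.82 and 1.59. The flox reloading libraries stood above the other 15 libraries. In mKO muscle the controls had 0.215, 0.141 and 0.339 CPM, the unloading libraries 0.721, 0.592 and 0.534, and the reloading libraries 0.343, 0.834 and 0.328. As for Mt1, mKO unloading lay wholly above mKO control, and mKO reloading overlapped mKO unloading.

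The log2 difference of Mt2 from control to unloading was 1.39 ± 0.45 in flox and 1.41 ± 0.45 in mKO muscle. From unloading to reloading it was 1.99 ± 0.38 in flox and -0.28 ± 0.41 in mKO muscle. Reloaded flox muscle had 3.38 ± 0.43 more than flox control, a 10.4-fold level. At reloading the mKO minus flox difference was -2.23 ± 0.39. The second mKO reloading library was the highest of its group for Mt1, Mt2 and Slc39a14. Without it the mKO change of Mt2 from unloading to reloading was -0.87, and from control to reloading it was 0.53 in place of 1.13.

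**Figure D2:**
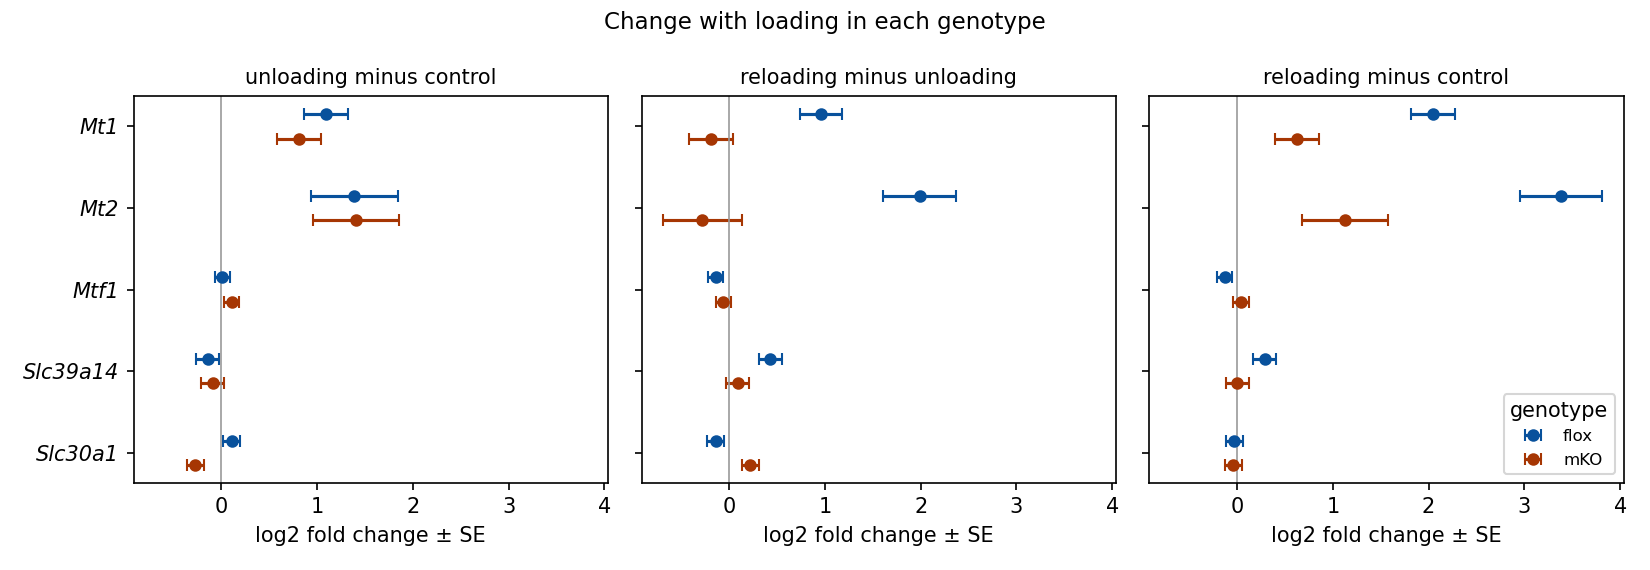
Log2 fold change (horizontal axis, the same scale in each panel) of the 5 genes for the 3 loading comparisons, in flox (blue) and mKO (brown) muscle; bars are the SE from the fit of 18 libraries. Mt1 and Mt2 differ from 0 in the same direction at unloading in both genotypes, and from unloading to reloading they stand at 0.96 and 1.99 in flox but at -0.19 and -0.28 in mKO muscle.

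The genotypes were also compared in their change. The interaction, the mKO change minus the flox change, was -0.28 ± 0.33 for Mt1 and 0.02 ± 0.65 for Mt2 from control to unloading. From unloading to reloading it was -1.15 ± 0.32 for Mt1 and -2.27 ± 0.56 for Mt2. From control to reloading it was -1.43 ± 0.33 and -2.26 ± 0.63. The 3 interactions of each gene share libraries and are not independent of one another.

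Mt2 was a larger share of the metallothionein counts in reloaded flox muscle than elsewhere. The ratio of Mt2 to Mt1 counts was 0.121, 0.133 and 0.111 in the 3 flox reloading libraries. It ran from 0.0316 to 0.0598 in flox control, from 0.0368 to 0.0742 in flox unloading and from 0.0242 to 0.107 in the 9 mKO libraries. The flox reloading ratios lay above all of these. Gm45774, which shares bases with Mt2, had 0.0071 ± 0.0123 CPM (SD, n = 3) in flox control, 0.316 ± 0.0646 in flox unloading and 0.832 ± 0.494 in flox reloading. In mKO muscle it had 0.0407 ± 0.053, 0.442 ± 0.152 and 0.179 ± 0.164 CPM. Its order of groups resembled that of Mt2, and how reads were divided between the pair was not tested.

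**Figure D3:**
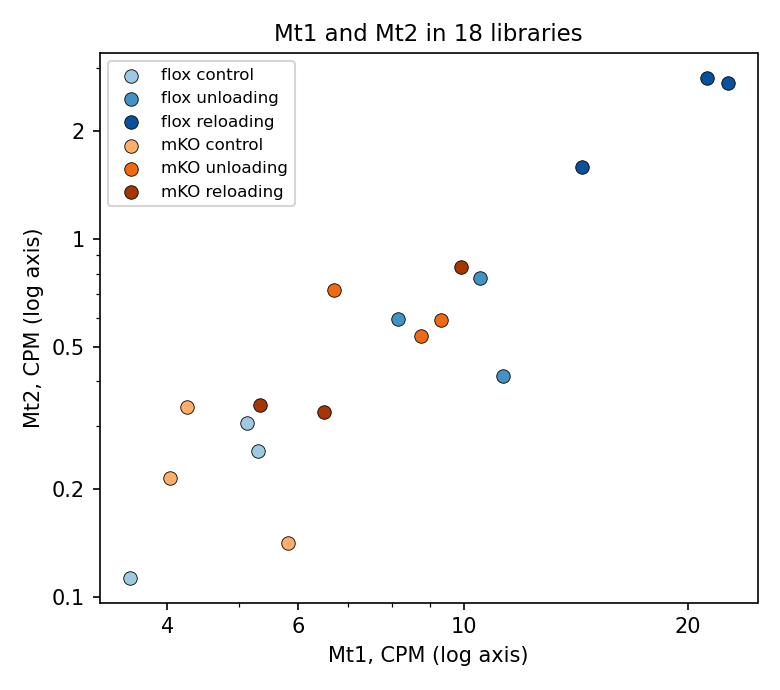
Mt2 against Mt1 in CPM (log axes), one point per library, coloured by group. The 3 flox reloading libraries lie at the upper right, from 14.4 CPM of Mt1 and 1.59 CPM of Mt2 upwards, apart from the other 15.

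Across the 18 libraries the log2 levels of Mt1 and Mt2 correlated at r = 0.919, and after each group's mean was taken out at 0.456; the points share library, depth and the groups themselves. With the counts of the 2 genes summed, the level was 4.88 ± 1.05, 10.5 ± 1.58 and 21.7 ± 5.09 CPM (SD, n = 3) in flox control, unloading and reloading. In mKO muscle it was 4.93 ± 0.9, 8.87 ± 1.29 and 7.73 ± 2.64 CPM. The sum does not depend on how reads of the close copies were shared between them.

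The 2 other metallothionein genes lie just upstream on the same chromosome. Mt3, the form best known from brain, had 25 to 84 counts per library. It stood at 0.777 ± 0.177 CPM (SD, n = 3) in flox control and 1.46 ± 0.18 in flox reloading. That rise, 0.90 ± 0.30 log2, passed edgeR's test (adjusted p = 0.0393). In mKO muscle Mt3 stood at 0.772 ± 0.377 CPM at control and 0.821 ± 0.281 at reloading, and the interaction, -0.82 ± 0.44, did not pass (adjusted p = 0.449). Mt4, known from squamous epithelia, had 0 counts in all 18 libraries, which over their summed depth allows a level of up to 0.00348 CPM by counting error alone.

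Mtf1, on chromosome 4 from 124802104 to 124849800, was level across the groups. Its 18 libraries ran from 24.3 to 31.6 CPM. Group means were 28.9 ± 1.57, 29.1 ± 0.634 and 26.5 ± 2.21 CPM in flox control, unloading and reloading, and 28.8 ± 2.25, 31.0 ± 0.759 and 29.7 ± 1.7 CPM in mKO muscle (SD, n = 3). None of its 6 loading differences exceeded 0.14 log2 in size, and the group ranges overlapped in all 6. The largest genotype difference was 0.16 ± 0.08 at reloading, where the ranges also overlapped. With libraries scaled by total counts that difference was 0.03, and the flox difference from control to reloading was 0.02 in place of -0.13. After unloading the mKO libraries (30.1 to 31.6 CPM) lay just above the flox libraries (28.4 to 29.7 CPM).

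Slc39a14, on chromosome 14 from 70303469 to 70351425 on the minus strand, stood highest in reloaded flox muscle. The flox control libraries had 13.5, 15.4 and 14.1 CPM, the unloading libraries 13.6, 12.5 and 13, and the reloading libraries 17.9, 19.6 and 15.2. Flox reloading lay above flox unloading without overlap and touched the range of flox control. In mKO muscle the libraries had 13.6, 15.2 and 13.4 CPM at control, 15.5, 11.7 and 12.3 after unloading and 13.3, 15.8 and 13 after reloading. The 3 mKO groups overlapped. The log2 difference from unloading to reloading was 0.43 ± 0.12 in flox and 0.09 ± 0.12 in mKO muscle, and the interaction was -0.34 ± 0.16. At reloading mKO minus flox was -0.33 ± 0.12, with overlapping ranges.

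Slc30a1, on chromosome 1 from 191906767 to 191913247, differed little between groups, and its unloading differences had opposite signs in the 2 genotypes. In flox muscle the controls had 16.4, 15.4 and 16.2 CPM and the unloading libraries 16.9, 16.5 and 18.2. In mKO muscle the controls had 17.8, 17.8 and 17.3 CPM and the unloading libraries 13.8, 14.6 and 15.5. Neither pair of groups overlapped. The log2 difference was 0.11 ± 0.09 in flox and -0.27 ± 0.09 in mKO muscle, with an interaction of -0.37 ± 0.13. After reloading the libraries had 13, 17.4 and 16.6 CPM in flox and 17.3, 16.5 and 17.6 CPM in mKO muscle. The low first flox reloading library set most of the spread of that group.

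Per kilobase of exon, which allows levels of different genes to be set side by side, flox control muscle had 3.74 ± 0.77 CPM per kb of Mt1, 3.25 ± 0.177 of Mtf1, 3.05 ± 0.102 of Slc30a1, 1.36 ± 0.0921 of Slc39a14 and 0.382 ± 0.171 of Mt2 (SD, n = 3). With these exon lengths, which join all annotated transcripts of a gene, the first 3 did not differ beyond their spread. For Mt1 the joined length was 1246 bases, against 549 for transcript Mt1-201. The level of Mt1 per kb, and its place beside the other genes, depends on that choice of length. In reloaded flox muscle Mt1 reached 15.6 ± 3.54 and Mt2 4.05 ± 1.17 CPM per kb, against 2.98 ± 0.249 for Mtf1, 2.98 ± 0.447 for Slc30a1 and 1.67 ± 0.212 for Slc39a14. The Mt2 value is divided by its full exon length, although most of that length is shared with Gm45774. Across groups the order of Mt1 was flox reloading, flox unloading, mKO unloading, mKO reloading, mKO control and flox control, and only the first step of that order was free of overlap.

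In numbers of genes called by edgeR at an adjusted p under 0.05, 1 of the 5 (Mt1) was called, and was higher, from control to unloading in flox muscle. There 5.74% of all tested genes were called, and 2.67% were called higher. From unloading to reloading 3 were called (Mt1, Mt2 and Slc39a14; background 31.9%). From control to reloading 2 were called, both higher (Mt1 and Mt2; background 22.6%, 12.3% higher). In mKO muscle Mt1 was called higher from control to unloading (background 7.75%, 4.09% higher). For these unloading steps DESeq2 called 2 members in each genotype, Mt1 and Mt2, and the Mt2 call was also gained with no low-count filter. In mKO muscle edgeR called none from unloading to reloading (background 18.3%) or from control to reloading (2.18%). At reloading Mt1 and Mt2 were called lower in mKO than in flox muscle (background 4.91%, 3.85% lower). No member was called between genotypes at control (background 0.0%) or after unloading (0.0%), or in the interactions for unloading (0.0%), for unloading to reloading (0.0%) and for control to reloading (0.522%). For the last 2 interactions 3 and 2 members had an unadjusted p under 0.05, and DESeq2 called 2 in each. For mKO unloading to reloading and control to reloading those counts were 1 and 2, and DESeq2 called 0. For the genotype difference at control and after unloading they were 0 and 1, and for the unloading interaction 1, with 0 by DESeq2 in each. Since the genes were chosen with these comparisons known, nothing is read from the counts.

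Ranges of CPM that did not overlap were also counted. From control to unloading 3 of the 5 were free of overlap in flox muscle (Mt1, Mt2 and Slc30a1; 25.8% of all tested genes) and the same 3 in mKO muscle (27.6%). From unloading to reloading 3 were free of overlap in flox (Mt1, Mt2 and Slc39a14; 44.0%) and 1 in mKO muscle (Slc30a1; 32.9%). From control to reloading the numbers were 2 in flox (Mt1 and Mt2; 39.9%) and 0 in mKO muscle (19.9%). Between genotypes 1 was free of overlap at control (Slc30a1; 9.79%), 2 after unloading (Mtf1 and Slc30a1; 9.29%) and 2 at reloading (Mt1 and Mt2; 22.4%). Nothing is read from these counts either. The Mt1 call for mKO unloading was kept in 7 of 13 recomputations, and the Slc39a14 call was lost without the second flox reloading library, where its difference was 0.34. Other Slc39a14 differences gained a call. From control to reloading in flox muscle it was called with total-count scaling (0.44 ± 0.13) and without the third flox reloading library (0.39 ± 0.12). Between genotypes at reloading it was called with total-count scaling (-0.46 ± 0.13) and without the second mKO reloading library (-0.42 ± 0.12).

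The other zinc transporters were examined as 2 families. They were 13 Slc39 genes (ZIP, which move zinc into the cytosol) and 9 Slc30 genes (ZnT, most of which move it out). Of these 12 and 6 were tested. Slc39a4, Slc30a3, Slc30a8 and Slc30a10 had 0 to 10 counts per library and were not tested. Per kilobase the most abundant in flox control muscle were Slc39a1 (ZIP1), at 18.2 ± 1.38 CPM per kb, and Slc30a9, at 9.69 ± 0.325 (SD, n = 3).

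At unloading 1 of the 18 was called in each genotype (5.56%), near the 5.74% of all tested genes in flox and the 7.75% in mKO muscle. In flox muscle Slc39a2 rose, by 0.81 ± 0.22 (adjusted p = 0.0335 in edgeR's quasi-likelihood test), from 2.57 ± 0.659 to 4.5 ± 0.48 CPM (SD, n = 3). The call was lost without any 1 of 4 of the 6 libraries. In mKO muscle 1 fell, Slc39a1, by 0.32 ± 0.08 on the log2 scale (adjusted p = 0.0226), also lost without any 1 of 4 of the 6 libraries. The median change of the 18 was -0.08 in flox and -0.06 in mKO muscle, against 0.00 and -0.01 for all tested genes.

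In flox muscle 6 of 18 rose and 1 fell from unloading to reloading, with a median of 0.23. The share called, 38.9%, was near the 31.9% of all tested genes, which was itself far above that at unloading. The largest rise was in Slc39a12, by 2.11 ± 0.53 (adjusted p = 0.00477), at only 5 to 54 counts per library in these groups. Slc39a6 rose by 0.79 ± 0.14 (adjusted p = 0.000301), Slc39a10 by 0.61 ± 0.12 (adjusted p = 0.00067) and Slc39a11 by 0.50 ± 0.17 (adjusted p = 0.0285). Slc39a6 and Slc39a10 are close relatives that bring zinc in at the cell surface. The single fall was Slc30a9, a mitochondrial zinc transporter, by 0.33 ± 0.07 on the log2 scale (adjusted p = 0.00145); it was chosen for mention after its value was seen.

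In mKO muscle 4 of 18 rose from unloading to reloading and none fell (22.2%, near the 18.3% of all tested genes), with a median of 0.12. They were Slc39a12, by 1.49 ± 0.50 (adjusted p = 0.0469), Slc39a11, by 0.62 ± 0.17 (adjusted p = 0.0168), Slc39a6, by 0.54 ± 0.14 (adjusted p = 0.0123), and Slc39a1, by 0.24 ± 0.08 (adjusted p = 0.0449). In a model of the compared groups alone none of the 4 was called, and without any 1 of 4 of the 6 libraries 1 or 2 were. No zinc transporter differed between genotypes in this change by edgeR's interaction test (1 of 18 at an unadjusted p under 0.05, 0 by DESeq2).

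**Figure D4:**
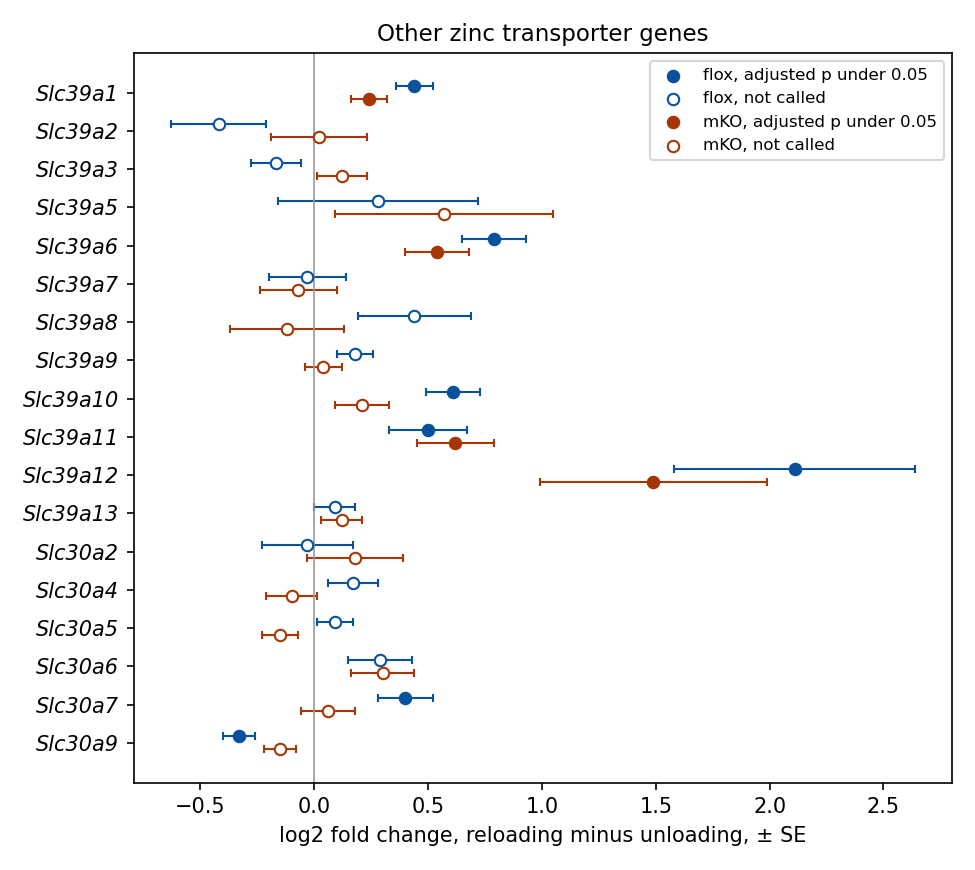
Log2 fold change from unloading to reloading (horizontal axis) of the 18 tested Slc39 and Slc30 genes other than the 2 described members, in flox (blue) and mKO (brown) muscle; bars are SE, and filled points passed the test. In flox muscle 7 are filled, 6 to the right of 0 and Slc30a9 to the left, and in mKO muscle 4 are filled, all to the right.

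From control to reloading in flox muscle 4 rose and 1 fell (27.8%, near the 22.6% of all tested genes). Slc39a6 rose by 0.55 ± 0.14 (adjusted p = 0.00774), Slc39a10 by 0.55 ± 0.12 (adjusted p = 0.00243) and Slc30a5 by 0.26 ± 0.08 (adjusted p = 0.032), and Slc30a9 fell by 0.40 ± 0.07 on the log2 scale (adjusted p = 0.000582). The count was 3 without the first flox reloading library and 2 without the second. In mKO muscle none passed in edgeR (4 at an unadjusted p under 0.05, 2 by DESeq2). Slc39a1 had 42.6 ± 1.24 CPM at mKO reloading and 45 ± 3.7 at mKO control, and Slc30a9 108.0 ± 10.4 and 128.0 ± 2.62 (SD, n = 3).

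Between genotypes at reloading Slc30a9 was higher in mKO muscle by 0.25 ± 0.07 (adjusted p = 0.0456). This single call was lost in a model of the compared groups, with no low-count filter, and without any 1 of 5 of the 6 libraries. With total-count scaling it was also lost, and 3 zinc transporters were called, all lower in mKO muscle. No zinc transporter passed in edgeR or DESeq2 between genotypes at control (1 at an unadjusted p under 0.05) or after unloading (0), or in the interactions for unloading (0) and for control to reloading (2).

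Genes known to respond to signals that also raise metallothioneins were set beside Mt1 and Mt2. Of 11 glucocorticoid-responsive genes, 3 rose and 1 fell from control to unloading in flox muscle (36.4%, against 5.74% of all tested genes), led by Fkbp5, by 2.19 ± 0.29 (adjusted p = 0.000501), and Sgk1, by 0.86 ± 0.21 (adjusted p = 0.0236). In mKO muscle 3 rose (27.3% against 7.75%), Fkbp5 by 2.13 ± 0.29 (adjusted p = 0.000343). From unloading to reloading 6 fell in flox (54.5% against 31.9%) and 7 in mKO muscle (63.6% against 18.3%), and no call was upward. Fkbp5 fell by 2.38 ± 0.29 on the log2 scale in flox (adjusted p = 9.46e-06) and by 2.16 ± 0.29 in mKO muscle (adjusted p = 9e-05). The part of this signal in the levels of Mt1 and Mt2 was not tested.

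Of 12 tested genes of interleukin-6 and STAT3 signalling, 5 rose and 5 fell in flox muscle from unloading to reloading (83.3%, against 31.9% of all tested genes). Il6 rose by 2.89 ± 0.69 (adjusted p = 0.00372), from 0.0549 to 0.424 CPM, while Cebpd fell by 1.67 ± 0.55 (adjusted p = 0.027) and Lcn2 by 1.63 ± 0.42 (adjusted p = 0.00618) on the log2 scale. In mKO muscle 1 rose and 5 fell at that step (50% against 18.3%). At reloading 1 of the 12 was lower in mKO than in flox muscle (8.33% against 4.91%), the oncostatin M receptor gene Osmr, by a log2 difference of -0.58 ± 0.12 (adjusted p = 0.00874).

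Among 12 targets and regulators of the antioxidant factor Nrf2, 4 rose and 3 fell in flox muscle from unloading to reloading (58.3%, against 31.9% of all tested genes). Nqo1, a quinone reductase, fell by 0.73 ± 0.12 on the log2 scale (adjusted p = 0.000212), and Hmox1, which degrades haem and is also on the iron list, rose by 0.67 ± 0.19 (adjusted p = 0.0113). Of 12 iron-handling genes 4 rose and 2 fell (50% against 31.9%). The iron exporter gene Slc40a1 fell by 1.13 ± 0.12 on the log2 scale (adjusted p = 2.7e-06), and the transferrin receptor gene Tfrc rose by 1.03 ± 0.27 (adjusted p = 0.00746). Of 7 tested copper-handling genes 1 rose and 2 fell (42.9%, near the same 31.9%), with Sco1, a copper chaperone of cytochrome oxidase, up by 0.61 ± 0.11 (adjusted p = 0.000342). In none of these 3 lists did all tested genes move one way in flox muscle. In mKO muscle at that step 4 genes of the Nrf2 list fell and 0 rose (33.3%, against 18.3% of all tested genes). Of the iron genes 2 rose and 2 fell (33.3%), and 1 copper gene rose (14.3%). The mKO calls included Nqo1 (-0.96 ± 0.12), Slc40a1 (-1.0 ± 0.12), Tfrc (1.16 ± 0.27) and Sco1 (0.48 ± 0.11). Hmox1 was not called there.

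Markers of several cell types differed in comparisons where Mt1 and Mt2 also differed. Slc39a14 was called by edgeR only in flox muscle from unloading to reloading. Of 12 macrophage and monocyte markers 10 rose in flox muscle from unloading to reloading (83.3%, against 31.9% of all tested genes). At reloading 10 were lower in mKO than in flox muscle (83.3% against 4.91%), among them Fcgr1, by -1.81 ± 0.33 (adjusted p = 0.00482), and Cd68, by -1.63 ± 0.26 (adjusted p = 0.00225). The summed level of the 12 was 147 to 160 CPM in flox control, 137 to 175 in flox unloading and 300 to 439 in flox reloading libraries. In mKO muscle it was 122 to 185, 100 to 152 and 146 to 205 CPM. None of the 12 was at 0 in any group. Within the flox reloading group the third library was lowest in this sum, in Mt1, in Mt2 and in Slc39a14, and within mKO reloading the second library was highest in all 4. The part of these cells in the levels of the 3 genes was not tested, and in whole muscle more cells of a type and more RNA per cell cannot be told apart.

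Of 10 skeletal muscle markers 5 fell and 1 rose in flox muscle from unloading to reloading (60% against 31.9%), and 4 were higher in mKO than in flox muscle at reloading (40.0% against 4.91%). Their summed level was 138000 to 157000 CPM in flox unloading, 124000 to 144000 in flox reloading and 145000 to 179000 in mKO reloading libraries. Slc30a9 also fell in flox muscle from unloading to reloading and was also higher in mKO muscle at reloading. From control to reloading in mKO muscle Slc30a9 had a log2 difference of -0.24 ± 0.07 (not called by edgeR, ranges free of overlap). In that comparison the median change of the 10 muscle markers was -0.01, with 0 called (background 2.18%). Of 10 fibro-adipogenic markers 6 rose and 2 fell in flox muscle from unloading to reloading (80.0% against 31.9%). At reloading 3 of them were lower in mKO than in flox muscle (30% against 4.91%). Of 9 endothelial markers 5 rose and 1 fell in flox muscle from unloading to reloading (66.7% against 31.9%). At reloading 1 of the 9 was lower in mKO than in flox muscle (11.1% against 4.91%). The part of these cell types in the levels of the zinc genes was not tested.

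All 8 proliferation genes rose in flox muscle from unloading to reloading (background 31.9%), and all 8 were lower in mKO than in flox muscle at reloading (background 4.91%). In mKO muscle 7 of the 8 also rose from unloading to reloading (87.5% against 18.3%). The summed level of the 8 was 81.1 to 104 CPM in flox reloading, 33.7 to 42.3 CPM in mKO reloading and 22.1 to 33.1 CPM in the other groups. Of 8 satellite cell and myoblast genes 3 were lower in mKO at reloading (37.5% against 4.91%), Mymk, Myog and Itga7. The summed macrophage markers of unloading and control libraries overlapped in each genotype. Neutrophil markers summed to 0.644 to 4.37 CPM in 17 libraries and 10.0 in the third flox unloading library. The part of proliferating cells, myoblasts, macrophages and neutrophils in the members' levels was not tested.

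The genes whose log2 levels were most like each member over the 18 libraries were ranked among 13126 genes averaging 1 CPM or more. Those of Mt1 were Itga7 (r = 0.936), the laminin-binding integrin of muscle fibres and myoblasts, Scn3b (0.905), Jpt1 (0.899), Atxn1l (0.897) and Eif4a-ps4 (0.885). Those of Mt2 were Ankrd10 (0.943), Itga7 (0.928), Mt1 (0.919), Cd63 (0.915) and H3f3b (0.914). For Slc39a14 they were Myo1f (0.914), Unc93b1 (0.886), C1qc (0.879), Spi1 (0.876) and Socs3 (0.876). Myo1f, Unc93b1, C1qc and Spi1 are genes of leukocytes and macrophages.

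Likeness was lower for the remaining pair. Mtf1 was most like Taf5 (r = 0.832), Rnf6 (0.772), Adipor2 (0.758), Cnot4 (0.742) and Cbwd1 (0.74), and Slc30a1 most like Gpc3 (0.709), Zfp141 (0.699), Idua (0.689), Fam229b (0.677) and Cybrd1 (0.668). With group means taken out, Slc39a14 and Myo1f still had r = 0.888, Mt1 and Itga7 0.667, and Mtf1 and Taf5 0.846. Mtf1 had r = -0.299 with Mt1 and -0.358 with Mt2. All of these are descriptions over 18 libraries that share groups and processing, with no test.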

How the data were processed

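The study sequenced polyadenylated RNA (TruSeq Stranded mRNA) from gastrocnemius in 18 libraries. The authors deposited a table of raw counts of reads per gene, with no scaling. Per the submitters' processing notes, the aligner was STAR 2.7.3a, the build GRCm38.p6 and the counter featureCounts 2.0.3; per the file headers, the counter was featureCounts 1.6.4 with the release 94 annotation. No strand, pairing or multi-mapping option appears in the command they record. The deposited DESeq2 tables were not used.

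Counts of 17833 genes were scaled by TMM and tested with edgeR 4.0.16 (R 4.3.3) by the quasi-likelihood F test in 1 model of 6 group means (12 residual degrees of freedom, common dispersion 0.0197), with Benjamini-Hochberg adjustment over all tested genes and calls at an adjusted p under 0.05. SE was taken from the fold change and F. CPM has no added count; likeness used log2 CPM with a prior count of 2. On simulated counts for control to reloading in flox muscle (17306 genes, 200 of them changed) edgeR recovered 95.5% of changed genes and called 12 unchanged ones; for the interaction 56% and 4.

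The 5 genes and all lists were chosen with earlier results of these data known. Named were the 5 genes, up to 4 called zinc transporters per comparison (the 2 most abundant per length where fewer than 2 were called), up to 3 called genes of other lists, the 5 most alike genes per member, and overlapping or related genes. Promoters came from RefSeq (4 of 5 members matched), identity searches used blastn 2.17.0 and Biopython 1.88. Alternatives were RLE factors, total counts, no or a stricter filter (1 CPM in 3 libraries), the compared groups alone, a replicate block, DESeq2 1.42.0, the sum of Mt1 and Mt2, and leaving out each library. No library pair looked like a duplicate.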

Additional observations from a re-analysis of the deposited data

Results flagged for a closer look

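Slc30a1 differed with unloading in opposite directions in the genotypes, and this is listed because every unloaded flox library (16.5 to 18.2 CPM) lay above every flox control (15.4 to 16.4 CPM) while every unloaded mKO library (13.8 to 15.5 CPM) lay below every mKO control (17.3 to 17.8 CPM). The mKO change minus the flox change was -0.37 ± 0.13 log2 (SE). That interaction term was in the edgeR fit and was not called, as was the case for all 17833 genes in that comparison, and Slc30a1 was not chosen independently of these data. From control to reloading the interaction was -0.01 ± 0.13.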

How the results depend on the processing

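No alternative reversed the direction of a called member; of 894 recomputed member values 868 moved by less than the SD between libraries. Taking Mt1 and Mt2 as 1 sum in place of Mt2 gave 1.04 (flox, unloading to reloading), 2.15 (flox, control to reloading), 0.85 (mKO, control to unloading), -1.49 (mKO minus flox at reloading), and interactions of -1.24 (unloading to reloading, not called) and -1.50 (control to reloading, called, unlike Mt1 or Mt2 alone). Scaling by total counts, which shifted the median of all genes by 0.109 in flox unloading to reloading, 0.146 in flox control to reloading, -0.134 between genotypes at reloading and -0.137 in the control to reloading interaction, gave for Mtf1 -0.03, 0.02, 0.03 and 0.04 there and -0.02 in the unloading to reloading interaction; for Slc30a1 -0.03, 0.11, -0.01 and -0.15; and for Slc39a14 0.44 in flox control to reloading. Under total counts 12 zinc transporters were called in flox control to reloading (11 higher, 1 lower). Between genotypes at reloading 3 were called there, all lower in mKO muscle. With the compared groups alone the counts became 0 in mKO control to unloading, mKO unloading to reloading and genotypes at reloading. No filter gave 0 in the last, and DESeq2 gave 2 in mKO control to reloading. The causes were not tested.

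Leaving out 1 library, the zinc transporter counts ran from 0 to 1 in flox and in mKO control to unloading, 2 to 6 in flox control to reloading, 1 to 3 in mKO unloading to reloading, 0 to 1 in mKO control to reloading and 0 to 1 between genotypes at reloading. Slc30a1 ran from -0.22 to -0.02 and -0.12 to 0.08 in flox unloading and control to reloading, 0.02 to 0.22 between genotypes at reloading, and 0.25 to 0.45 and -0.12 to 0.08 in the 2 reloading interactions. Mt2 ran from -0.87 to -0.05 and 0.53 to 1.51 in mKO unloading and control to reloading, -2.82 to -1.99 between genotypes at reloading, and -2.86 to -2.04 and -2.85 to -1.88 in the interactions. Mt1's control to reloading interaction was called in 7 of 19 alternatives, among them DESeq2, the block, and without the third flox or the second mKO reloading library. The members were chosen with these comparisons known, so nothing is read from their calls in any setting.

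Over all genes, calls between genotypes at reloading (875) ran from 443 with the compared groups alone to 1557 with no filter, and from 127 to 1630 without 1 library; in mKO control to reloading (389) from 138 to 1216, and from 85 without 1 library; in the control to reloading interaction (93) up to 755, and from 0 to 448 without 1 library. In flox control to unloading (1024) no filter gave 1651 and leaving out 1 library 364 to 801, in mKO control to unloading (1382) the compared groups 879, and in mKO unloading to reloading (3270) 2107. Where none was called, no filter gave 148 and 133 between genotypes at control and unloading and 122 and 564 in the 2 other interactions, and DESeq2 gave 161 in the last.

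A replicate block left each zinc transporter count as it was (7 in flox unloading to reloading) and raised the control to reloading interaction over all genes from 93 to 143 and the unloading to reloading interaction from 0 to 10. Same-numbered libraries had deviations that correlated from -0.0744 to 0.126, and 9 of 18 libraries correlated best with their own number, so the numbers were not taken as pairs. Depth limits Mt2 and Slc39a12, at 5 to 152 and 5 to 54 counts per library, more than the others.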
